A study of Sus scrofa with 2 samples.

Results

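The enzymes of the tricarboxylic acid (TCA) cycle and of fatty-acid oxidation were followed in biceps femoris muscle of newborn cloned piglets. Entries of the transcript tables were taken as members where the protein description named a TCA cycle enzyme, an acyl-CoA dehydrogenase, a carnitine-dependent transferase or carrier, an enoyl-CoA or hydroxyacyl-CoA enzyme, a 3-ketoacyl-CoA thiolase, the trifunctional enzyme, an electron transfer flavoprotein or an acyl-CoA synthetase. This rule, which used no expression value, found 64 of the 12535 entries with at least 1 read in either library. They were assigned to 55 distinct enzymes, since 9 proteins were given a second entry. Of the 17 terms in the rule, "pyruvate dehydrogenase E1" matched no entry.

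All piglets were produced by somatic cell nuclear transfer, in which the nucleus of a body cell is placed in an emptied egg, and muscle was taken on day 1 after birth. The abnormal cloned group was a single RNA pool of 3 piglets whose phenotype was given as developmental failure, with an enlarged tongue, a defect of the navel and inability to stand or walk. The normal cloned group was a single RNA pool of healthy cloned piglets, whose number is 3 in the sample labels and 4 in the published methods. Nuclei of the abnormal piglets and of 2 normal piglets came from embryonic fibroblasts of a male large white pig, and those of the other 2 normal piglets from ear fibroblasts of a different male, so donor and phenotype cannot be told apart in the pools. Each group was therefore 1 library, with no replicate check. Every test below compared the reads of these 2 libraries, not the conditions, and every interval covered counting error only.

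The TCA cycle oxidises acetyl-CoA in the mitochondrial matrix and hands its electrons to the respiratory chain. Fatty acids enter this route after activation to acyl-CoA at the outer membrane, transfer across the inner membrane as carnitine esters, and repeated rounds of dehydrogenation, hydration, a further dehydrogenation and thiolytic cleavage, which is β-oxidation. After birth milk fat becomes a major fuel, and slow muscle fibres are richer in these enzymes than fast fibres.

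Reads counted on transcripts in the deposited tables, the depth used here, summed to 6.38 M for the abnormal cloned group and 6.52 M for the normal cloned group. RPKM, the number of reads scaled to transcript length and to library total, was the measure of level. For 7493 genes each library had 10 or more reads, and over these the median of the log2 ratio (abnormal over normal) was 0.36, a fold of 1.28, so that a gene at the same RPKM in both libraries lay below most genes. Transcripts of the mitochondrial genome took 36.0% of the reads in the abnormal library (95% exact binomial interval 35.98 to 36.05%) and 46.1% in the normal library (46.05 to 46.13%). The skeletal muscle actin ACTA1 was at 42258 and 37387 RPKM in the abnormal and normal library. The heart myosin MYH6 had 2 and 7 reads, but its entry overlaps that of MYH7 and only unique reads were counted, so its level is uncertain. Of the 3 matched muscle markers, MYOT and NEB of the sarcomere were called higher, at 1.27 and 1.52. Markers of slow fibres stood apart. 4 slow-fibre genes (MYH7, TNNC1, MYL2 and MYL3) were called lower, at log2 ratios between −3.52 and −3.02, and the summed level of the 5 matched slow markers was 1923 against 16163 RPKM. The 5 matched fast markers summed to 48453 against 48947 RPKM, with no member called. Because these are bulk pools, fewer cells of a type and less RNA per cell cannot be told apart.

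Across the module the 2 libraries were close in share of all reads, and single enzymes moved both ways. The 64 entries held 56461 reads in the abnormal library, which is 0.885% of all reads (0.878 to 0.893%), and the normal library held 56114, or 0.861% (0.854 to 0.868%). The log2 ratio of the sums was 0.04 (0.02 to 0.06). This lay below the ratio for all transcripts outside the mitochondrial genome, which was 0.25, or 1.19-fold. A gene was called when the two-sided Audic-Claverie test of its reads gave a false discovery rate (FDR) of at most 0.001 and its log2 ratio reached 1 in size. By that rule 5 entries (7.81%) were called higher in the abnormal library, beside 12.0% of all genes, and 1 entry (1.56%) was called lower, beside 1.45% of all genes. The 5 were IDH3A, OGDH, OGDHL, ACSL4 and ECHDC3, and the entry called lower was ACAA2. The other 58 entries were not called. When ratios were taken relative to the all-gene median, 3 entries (OGDH, ACSL4 and ECHDC3) were called higher and 2 (ACAA2 and ACADL) lower, beside 6.48% and 3.97% of all genes. With a correction for transcript length, 3 were called higher and 5 lower (ACAA2, ACADL, ACSL3, OXCT1 and ACLY), beside 6.09% and 3.69% of all genes. When edgeR was run at an assumed coefficient of variation of 0.2 between samples, OGDH and ACSL4 were the members still called, and at 0.4 none was. The share of all genes called by edgeR was not taken, so these counts have no background beside them.

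Of the 64 entries, 52 had at least 10 reads in both libraries and 12 did not. Among the 52, log2 ratios ran from −1.51 to 2.09 with a median of 0.04, and 46 lay within 1 of 0. A ratio above 0 was found in 27 of them (51.9%) against 68.7% of all genes with that depth. In 39 (75.0%) the ratio lay below the all-gene median of 0.36, where 50.0% of all genes lie by construction. The 95% interval lay wholly below 0 in 18 and wholly above 0 in 17, and it spanned 0 in the other 17. Among all genes, 13.6% had an interval wholly below 0 and 44.5% wholly above. The entries were more deeply read than the typical gene, with a median of 402 and 379.5 reads against 98 and 70, so their intervals were narrower than those of most genes. Of the 52, 9.62% were called higher and 1.92% lower, beside 18.2% and 2.07% of the 7493 genes.

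**Figure D1:**
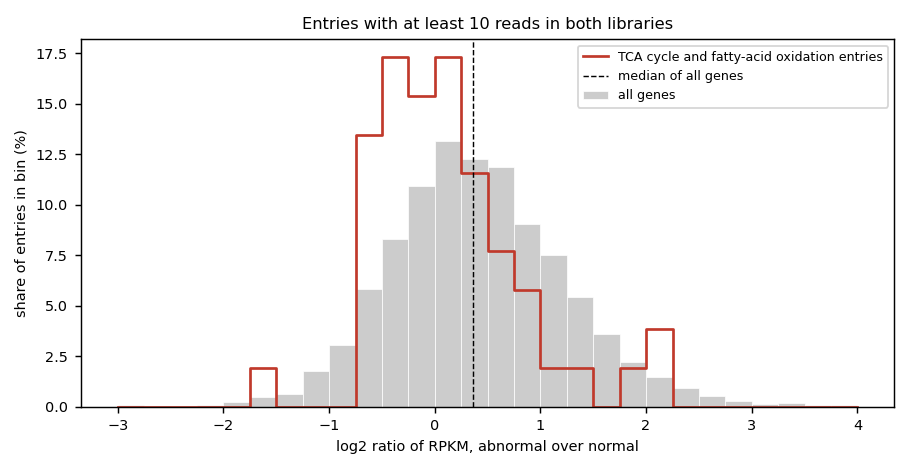
Distribution of the log2 RPKM ratio (abnormal over normal) for the 52 enzyme entries and for all 7493 genes that had 10 or more reads in each library, as percent of each set; values past either end of the axis are placed in the outermost bin. The enzymes centre at 0.04 and all genes at 0.36.

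The order of enzymes by level was largely the same in both libraries. Over the 52 entries the log2 RPKM values of the 2 libraries had a Pearson r of 0.96 and a Spearman rho of 0.95 (0.93 and 0.90 over all genes), as a description across genes, which share the libraries and are no replicates. HADHB and HADHA, the subunits of the trifunctional enzyme, exchanged places with each other, at ranks 2 and 3 in the abnormal library and 3 and 2 in the normal library. Citrate synthase and carnitine acetyltransferase held ranks 4 and 5 in both. ACAA2 went from rank 8 in the normal library to rank 25 in the abnormal library.

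**Figure D2:**
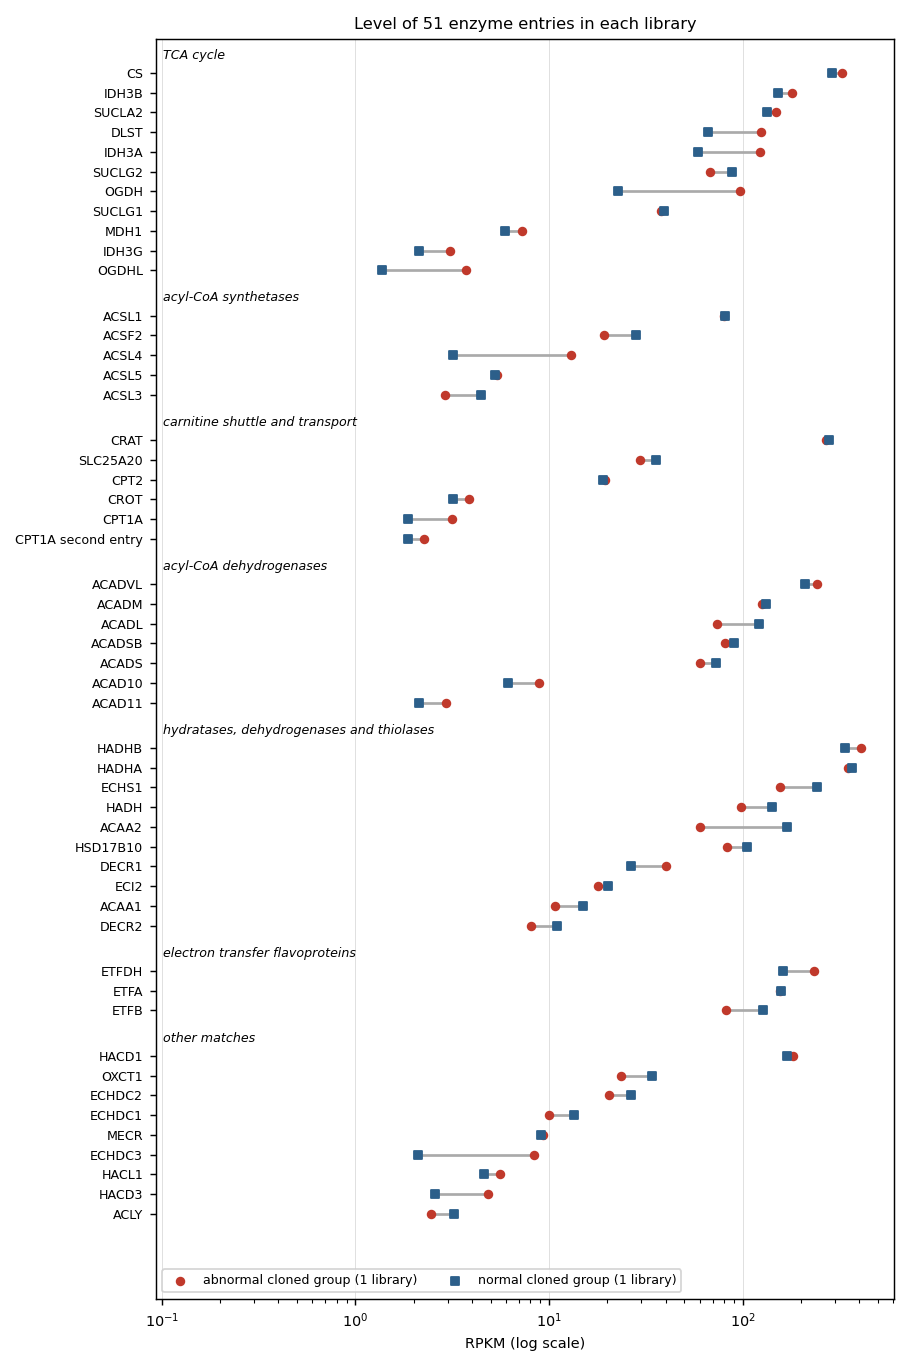
RPKM of 51 of the 52 entries in the abnormal library (circles) and the normal library (squares) on a log axis, grouped by role and joined by a line; each point is 1 library, with no replicate. Long lines mark OGDH, OGDHL, ACSL4 and ECHDC3, with the abnormal library to the right, and ACAA2, with the normal library to the right.

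Of the 17 entries of the TCA cycle group, 3 were called higher, or 17.6% beside 12.0% of all genes, and none lower. Relative to the all-gene median OGDH alone of the 3 stayed called. The median log2 ratio over the 12 with enough reads was 0.26, below the all-gene median. The highest ratios were those of enzymes that release carbon dioxide. OGDH, the E1 component of the 2-oxoglutarate dehydrogenase complex, had 195 reads (22.7 RPKM) in the normal library and 812 reads (96.7 RPKM) in the abnormal library. This was the largest ratio among the 52 entries, 4.25-fold or 2.09 on the log2 scale (1.86 to 2.32, Audic-Claverie FDR = 5.52e-91), and reads covered 94.3% and 98.7% of its transcript of 1316 bases (Sscrofa9 chromosome 18, 49179772 to 49236717). DLST, the E2 component of the same complex, had 1090 reads (65.8 RPKM) in the normal and 2013 reads (124.1 RPKM) in the abnormal library. Its log2 ratio of 0.92 (0.81 to 1.02) stayed under the fold limit, so it was not called in spite of its depth. OGDHL, a related E1 protein, was low in both libraries, at 28 reads (1.38 RPKM) and 74 reads (3.72 RPKM). It was called higher, at 1.43 (0.79 to 2.12, Audic-Claverie FDR = 1.99e-05), on reads that covered only 5.74% and 5.99% of its transcript (chromosome 14, 94048996 to 94076506), and the call was lost when the ratio was taken relative to the median of all genes.

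NAD-dependent isocitrate dehydrogenase is built of 3 kinds of subunit. The catalytic subunit IDH3A had 669 reads (58.5 RPKM) in the normal library and 1373 (122.7 RPKM) in the abnormal library. It was called higher, 2.10-fold or 1.07 on the log2 scale (0.93 to 1.20, Audic-Claverie FDR = 2.79e-57, chromosome 7, 53783614 to 53801181), but at 0.71 relative to the all-gene median it fell under the fold limit. The subunit IDH3B had 1522 and 1760 reads (152.7 and 180.4 RPKM), a log2 ratio of 0.24 (0.14 to 0.34) that turned to −0.12 relative to the all-gene median. IDH3G was read only 19 and 27 times (2.13 and 3.09 RPKM), and its interval of −0.36 to 1.47 left the direction unresolved at this depth. IDH3A thus differed between the libraries by more than its partner IDH3B, whichever scaling was used.

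The other steps described here lay nearer to equal RPKM. Citrate synthase, which joins acetyl-CoA to oxaloacetate, was at 288.8 RPKM in the normal and 324.8 RPKM in the abnormal library. Its ratio was 0.17 (0.07 to 0.27), or −0.19 relative to the all-gene median. The subunits of succinyl-CoA ligase, which makes ATP or GTP directly, did not move together. SUCLA2, of the ATP-forming enzyme, was at 132.8 RPKM in the normal and 148.6 RPKM in the abnormal library, at 0.16 (0.07 to 0.25), or −0.20 relative to the median. SUCLG2, of the GTP-forming enzyme, was at 87.6 and 67.8 RPKM, at −0.37 (−0.52 to −0.23). SUCLG1, the subunit common to both forms, was at 39.4 and 37.6 RPKM, at −0.07 (−0.29 to 0.15). Cytosolic malate dehydrogenase MDH1 had 36 and 43 reads, with an interval of −0.39 to 0.97. Fumarase could not be judged, since its entry had 7 reads in the normal and 8 in the abnormal library. Its second entry had 0 reads in the normal library and 1 in the abnormal library. Both fumarase entries lay over the same locus and only unique reads were counted, so these low counts do not give its level. Second entries of IDH3A, IDH3B and SUCLG1 held 0 to 2 reads per library, all at or under the floor of 3 reads (0.460 RPM, reads scaled to library total, in the normal and 0.470 RPM in the abnormal library), and were given no fold where 1 library was at 0.

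Grouping chosen after the values were seen separated these steps further. OGDH, DLST, OGDHL and the 3 IDH3 subunits together held 3523 reads in the normal and 6059 in the abnormal library, 1.76-fold or 0.81 on the log2 scale. All 6 had a ratio above 0, and 5 lay above the all-gene median. Citrate synthase, SUCLA2, SUCLG1 and SUCLG2 together held 4599 and 4685 reads, at 0.06, and all 4 lay below the all-gene median. The sets do not cover the whole cycle. MDH1 (0.29) and fumarase, with few reads, were in neither, while the first set kept OGDHL and IDH3G in spite of their low counts. The grouping was made on these values, so the difference between both sets is a description.

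**Figure D3:**
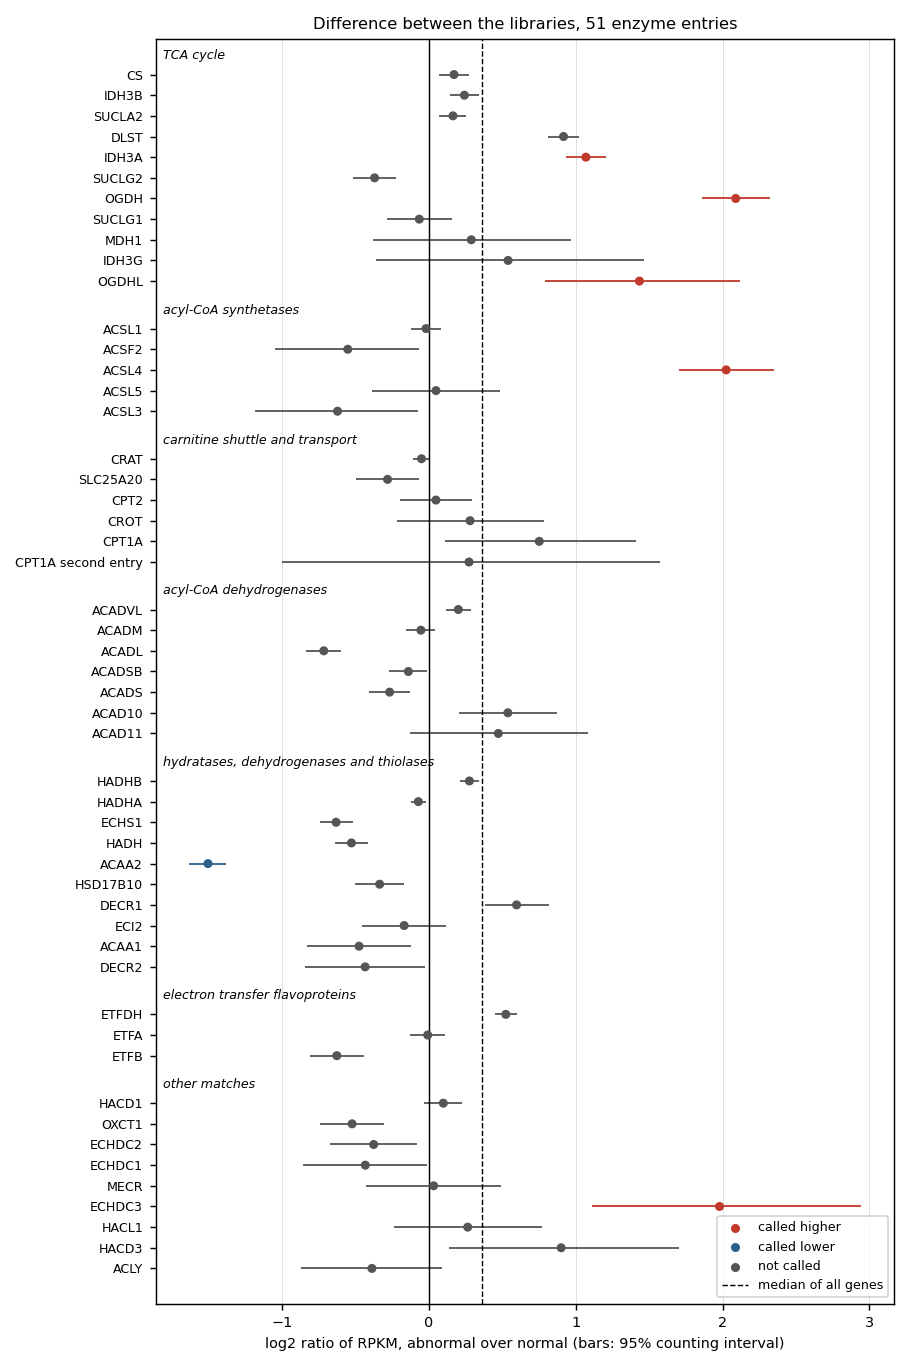
Log2 RPKM ratio (abnormal over normal) with its 95% counting interval for 51 of the 52 entries, grouped by role; a solid line marks equal RPKM and a dashed line the all-gene median of 0.36. The entries called higher are OGDH, IDH3A, OGDHL, ACSL4 and ECHDC3, the entry called lower is ACAA2, and most others lie within 1 of 0.

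The acyl-CoA synthetases, which activate fatty acids, comprised 9 entries with 1951 reads in the normal and 2148 in the abnormal library, at 0.17 (0.08 to 0.26). ACSL1, the most abundant by level, was at 80.9 RPKM in the normal and 79.7 RPKM in the abnormal library, at −0.02 (−0.12 to 0.08). ACSL4, which prefers arachidonic acid and other polyunsaturated fatty acids, had 101 reads (3.18 RPKM) in the normal and 402 reads (12.9 RPKM) in the abnormal library. It was called higher, 4.07-fold or 2.02 on the log2 scale (1.71 to 2.35, Audic-Claverie FDR = 2.33e-43, chromosome X, 88859579 to 89033122), and its added reads exceeded the surplus of the whole group. ACSF2 had 90 and 60 reads, at −0.55 (−1.05 to −0.07), and ACSL3 had 74 and 47 reads, at −0.62 (−1.18 to −0.08). ACSL5 was nearly level at 90 and 91 reads. Below 10 reads were ACSBG1 with 5 and 6, the second entry of ACSL3 with 2 and 6, ACSS3 with 1 and 1, and the second entry of ACSL4 with 0 and 3, in the normal and abnormal library.

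The carnitine shuttle was close to equal in its share of reads, though 5 of its 6 entries lay below the all-gene median. Its 6 entries held 5506 reads in the normal and 5202 in the abnormal library, at −0.05 (−0.11 to 0.00), and none was called. Carnitine acetyltransferase CRAT, which buffers acetyl-CoA as acetylcarnitine, made up most of these reads at 277.8 and 268.0 RPKM, with a ratio of −0.05 (−0.11 to 0.01). Relative to the all-gene median CRAT stood at −0.41. CPT2, which reforms acyl-CoA on the matrix side, was at 18.9 and 19.5 RPKM, at 0.05 (−0.20 to 0.29), or −0.31 relative to the all-gene median. SLC25A20, the carrier that exchanges acylcarnitine for carnitine, was at 35.7 RPKM in the normal and 29.3 RPKM in the abnormal library, at −0.28 (−0.50 to −0.07). CPT1A, the liver form of the outer-membrane transferase, was low with 34 and 56 reads (1.87 and 3.15 RPKM), at 0.75 (0.11 to 1.41). A second entry assigned to it had 11 and 13 reads, but lay on the opposite strand without overlapping the first. The muscle form CPT1B was not among the matched entries and was not analysed here. CROT, the peroxisomal octanoyltransferase, had 64 and 76 reads, at 0.28 (−0.22 to 0.78).

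The acyl-CoA dehydrogenases catalyse the first step of each β-oxidation round, each for its own range of chain lengths. Their 7 entries held 7555 reads in the normal and 6890 in the abnormal library, at −0.10 (−0.15 to −0.05), with none called. ACADVL, the membrane-bound enzyme for very long chains, was at 209.9 RPKM in the normal and 241.0 RPKM in the abnormal library. Its ratio of 0.20 (0.12 to 0.28) became −0.16 relative to the all-gene median. ACADL, the long-chain enzyme, had the opposite sign, with 120.8 RPKM in the normal and 73.4 RPKM in the abnormal library. With 1517 and 903 reads it was 1.64-fold lower, or −0.72 (−0.84 to −0.60), short of the fold limit, although relative to the all-gene median it stood at −1.08 and was called lower. The medium-chain enzyme ACADM was at 131.2 and 126.3 RPKM, at −0.06 (−0.15 to 0.04). ACADSB, for short and branched chains, was at 89.6 and 81.3 RPKM, at −0.14 (−0.27 to −0.01), and the short-chain enzyme ACADS was at 72.4 and 60.1 RPKM, at −0.27 (−0.41 to −0.13). The less abundant ACAD10 and ACAD11 had 131 and 42 reads in the normal and 186 and 57 in the abnormal library, at 0.54 (0.21 to 0.87) and 0.47 (−0.13 to 1.08).

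The hydratases, hydroxyacyl-CoA dehydrogenases and thiolases showed the lowest ratios of the module. The 11 entries held 17159 reads in the normal and 14749 in the abnormal library, at −0.19 (−0.22 to −0.16), and 8 of the 10 with enough reads lay below 0. ACAA2, the mitochondrial 3-ketoacyl-CoA thiolase that cleaves acetyl-CoA from shortened chains, had 2009 reads (170.0 RPKM) in the normal and 692 reads (59.8 RPKM) in the abnormal library. It was called lower, 2.84-fold or −1.51 on the log2 scale (−1.63 to −1.38, Audic-Claverie FDR = 1.40e-139, chromosome 1, 102229469 to 102256875), the lowest ratio of the 52 entries. The call was lost with edgeR at an assumed coefficient of variation of 0.2, where its adjusted p was 0.0089. The short-chain enoyl-CoA hydratase ECHS1 was at 241.9 RPKM in the normal and 155.9 RPKM in the abnormal library, at −0.63 (−0.75 to −0.52). The short-chain hydroxyacyl-CoA dehydrogenase HADH was at 141.2 and 97.9 RPKM, at −0.53 (−0.64 to −0.42), and HSD17B10 was at 105.3 and 83.4 RPKM, at −0.34 (−0.51 to −0.17). All 3 were below the normal library by more than counting error, without reaching the fold limit, although with TMM scaling ECHS1 stood at −1.03 and was called lower.

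The trifunctional enzyme, which carries out the last 3 steps for long chains at the inner membrane, lay nearer to equal RPKM. HADHB, its thiolase subunit, was at 336.5 RPKM in the normal and 407.0 RPKM in the abnormal library, at 0.27 (0.21 to 0.34), or −0.09 relative to the all-gene median. HADHA, its hydratase and dehydrogenase subunit, was at 366.6 and 348.4 RPKM, at −0.07 (−0.12 to −0.02). DECR1, which prepares unsaturated chains for β-oxidation, was at 26.5 RPKM in the normal and 40.0 RPKM in the abnormal library, at 0.60 (0.38 to 0.82), above the all-gene median as well. The peroxisomal thiolase ACAA1 had 165 and 116 reads, at −0.48 (−0.83 to −0.13). DECR2 had 123 and 89 reads, at −0.44 (−0.85 to −0.03). ECI2, an enoyl-CoA isomerase, had 223 and 194 reads, at −0.17 (−0.46 to 0.11), with 6 and 9 reads on its second entry.

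The electron transfer flavoproteins collect electrons from the acyl-CoA dehydrogenases. Of their 3 entries none was called. ETFDH, the membrane oxidoreductase that passes these electrons to ubiquinone, was at 161.7 RPKM in the normal and 232.2 RPKM in the abnormal library, at 0.52 (0.45 to 0.60). Relative to the all-gene median it stood at 0.16, and with the length correction at 0.05. ETFA was level at 157.6 and 156.5 RPKM, at −0.01 (−0.13 to 0.11). ETFB was at 126.9 RPKM in the normal and 82.1 RPKM in the abnormal library, at −0.63 (−0.81 to −0.45), or −1.02 with TMM scaling, under which it was called lower. The α and β chains form one heterodimer, yet the ETFA to ETFB ratio of RPKM went from 1.24 to 1.91.

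A further 11 entries met the wording of the rule without belonging to either pathway in the strict sense. ECHDC3, an enoyl-CoA hydratase domain protein, had 14 reads (2.11 RPKM) in the normal and 54 reads (8.33 RPKM) in the abnormal library. It was called higher at 1.98 (1.11 to 2.94, Audic-Claverie FDR = 4.41e-06, chromosome 10, 57113207 to 57131105), with a wide interval because of its low counts. The related ECHDC2 and ECHDC1 had 227 and 116 reads in the normal and 171 and 84 in the abnormal library, at −0.38 (−0.67 to −0.09) and −0.43 (−0.86 to −0.02). OXCT1, which activates ketone bodies for oxidation, was at 33.8 and 23.5 RPKM, at −0.52 (−0.74 to −0.31). HACD1, a muscle enzyme of fatty-acid elongation, was at 169.3 RPKM in the normal and 181.1 RPKM in the abnormal library, at 0.10 (−0.03 to 0.23), or −0.26 relative to the all-gene median. HACD3 had 23 and 42 reads, at 0.90 (0.13 to 1.70). Intervals spanned 0 for HACL1 (63 and 74 reads), for MECR of mitochondrial fatty-acid synthesis (82 and 82 reads) and for ACLY, which splits cytosolic citrate (87 and 65 reads). HACD4 and the second entry of ACLY had 0 reads in the normal and 3 and 2 in the abnormal library.

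The fatty-acid oxidation groups together, from synthetases to flavoproteins, held 36391 reads in the normal and 33931 in the abnormal library, at −0.07 (−0.09 to −0.05). Of their 31 entries with enough reads, 25 lay below the all-gene median. Some of them were then sorted by location, again after the values were seen. The 6 proteins of the inner membrane (ACADVL, HADHA, HADHB, ETFDH, CPT2 and SLC25A20) held 15670 reads in the normal and 17021 in the abnormal library, at 0.15. The intervals of 5 of the 6 lay wholly below the all-gene median, and that of ETFDH lay above it. The 11 soluble matrix enzymes (ACADL, ACADM, ACADS, ACADSB, ECHS1, HADH, ACAA2, HSD17B10, ETFA, ETFB and DECR1) held 13259 and 9517 reads, at −0.45, and all of them but DECR1 had a ratio below 0. The intervals of 8 lay wholly below 0, and those of ACADM and ETFA spanned 0. ACAD10 and ACAD11, both above 0, the synthetases, the other carnitine enzymes and the peroxisomal enzymes were placed in neither set. The sets were chosen on these values, so the difference between them is a description and was not tested.

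Ratios between partner enzymes within a library do not depend on how the library totals are scaled to each other. A correction for transcript length would not cancel where partners differ in length, and it was not applied to these pairs. In all, 13 pairs were compared, chosen after the values were seen. HADHB to ACAA2, both thiolases for different chain lengths, differed most among the pairs within β-oxidation, at 1.98 in the normal and 6.80 in the abnormal library, a log2 difference of 1.78 (1.64 to 1.92). ACADVL to ACADL went from 1.74 to 3.28, a difference of 0.92 (0.77 to 1.06). OGDH to DLST, partners in one complex, went from 0.346 to 0.780, at 1.17 (0.92 to 1.42), and IDH3A to IDH3B went from 0.383 to 0.680, at 0.83 (0.66 to 0.99). Smaller shifts were seen for ETFA to ETFB at 0.62, SUCLA2 to SUCLG2 at 0.53, ETFDH to ETFA at 0.53, HADHA to HADH at 0.46, HADHA to HADHB at −0.35, CPT2 to SLC25A20 at 0.33 and ACADM to ACADS at 0.21, each with an interval clear of 0. The largest difference of all was that of ACSL4 to ACSL1, at 2.04, with 0.039 in the normal and 0.162 in the abnormal library. SUCLG1 to SUCLA2 was the pair whose interval held 0, at −0.23 (−0.47 to 0.01).

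**Figure D4:**
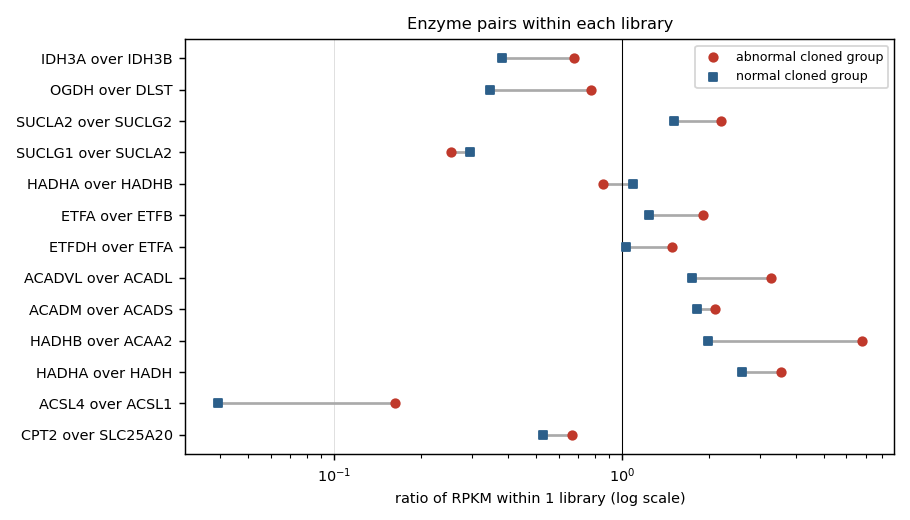
RPKM ratio of 13 enzyme pairs within the abnormal library (circles) and the normal library (squares) on a log axis, joined by a line; each point is 1 library, and a vertical line marks equal RPKM of both partners. ACSL4 over ACSL1, HADHB over ACAA2 and OGDH over DLST have the longest lines, with the abnormal library to the right.

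Transcript length and read coverage bear on these values. Over all genes the median log2 ratio climbed from 0.10 for transcripts under 1000 bases to 0.66 for those of 3000 bases or more. Among the enzymes it was 0.10 and 0.47 in these classes and lowest, at −0.28, between 1500 and 2000 bases, where all genes had 0.39. The correlation of ratio with length was weak in both sets, with a Pearson r of 0.19 over the 52 entries and 0.19 over all genes. Reads covered a median of 94.9% and 95.4% of the enzyme transcripts with at least 100 reads in both libraries. At that depth, 3 of 35 enzyme entries (8.57%) were covered over less than 30% of their length in both libraries, beside 2.29% of all genes. Of the 52 entries, 9 were covered over less than 30% of their length in both libraries, among them ACSL1, whose 1532 reads in the abnormal library fell on 15.4% of its length. The other 8 were SUCLG1, MDH1, IDH3G, OGDHL, ACSL3, CPT1A, ECI2 and ACLY. For 4 of these 9 (SUCLG1, ACSL3, ECI2 and ACLY) a second entry lay over the same locus, and reads shared by overlapping entries are dropped when only unique hits are counted, so their levels are uncertain.

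Genes around the pathway, taken from lists of its neighbours, were described in the same way, beginning with the entry of pyruvate. List medians below are over genes with at least 10 reads per library, as is the all-gene median of 0.36. Of 13 genes listed for pyruvate entry and its control, 9 were matched, 4 were called higher and none lower (all genes 12.0% and 1.45%), and the median ratio of 8 was 0.85. The difference from all genes was not tested. PDK4, the kinase that switches off pyruvate dehydrogenase, had 629 reads (50.97 RPKM) in the normal and 7294 reads (603.9 RPKM) in the abnormal library, at 3.57 (3.45 to 3.69). The opposing phosphatase subunits PDP1 and PDPR went from 51 and 35 reads to 103 and 94, at 1.05 and 1.46, and the structural component PDHX from 171 to 359 reads, at 1.10. Relative to the all-gene median PDK4 stood at 3.21 and PDPR at 1.10, while PDP1 and PDHX were under 1, at 0.69 and 0.74. DLAT and DLD, the E2 and E3 components, were at 0.66 (0.49 to 0.84) and 0.56 (0.46 to 0.66) without being called. MPC2, of the mitochondrial pyruvate carrier, was at −0.09 (−0.19 to 0.01).

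Among genes of fatty-acid uptake, activation and thiolysis outside the rule, 9 of 16 were matched, 2 were called higher and 1 lower (all genes 12.0% and 1.45%), with a median of 0.71 over 7. FABP3, the fatty-acid binding protein of heart and muscle, had 2855 reads in the normal and 1371 in the abnormal library and was called lower at −1.03 (−1.12 to −0.93). UCP3, an uncoupling protein of muscle mitochondria, went from 69 to 215 reads, at 1.67 (1.27 to 2.08). ACACB, which makes the malonyl-CoA that restrains carnitine palmitoyltransferase 1, went from 254 to 552 reads, at 1.15 (0.93 to 1.37), or 0.79 relative to the all-gene median. The fatty-acid receptor CD36 was at 110.1 RPKM in the normal and 179.8 RPKM in the abnormal library, at 0.71 (0.62 to 0.80), and was not called.

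Of 12 listed transcription factors of oxidative metabolism, 10 were matched and 1 was called higher, a share near the 12.0% of all genes. PPARA, a fatty-acid sensing nuclear receptor, had 33 reads in the normal and 106 in the abnormal library, at 1.71 (1.14 to 2.32). ESRRA, a driver of mitochondrial genes, had 248 and 481 reads and at 0.99 (0.76 to 1.21) fell short of the fold limit. The list's median was 0.83 over 8. Among genes of anaplerosis, shuttles and ketone use, 8 of 13 were matched and none was called in either direction, with a median of 0.43 over 7. Of the listed TCA cycle steps that the rule did not match, SDHAF2, an assembly factor of succinate dehydrogenase, was the single match, at 302 and 298 reads.

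**Figure D5:**
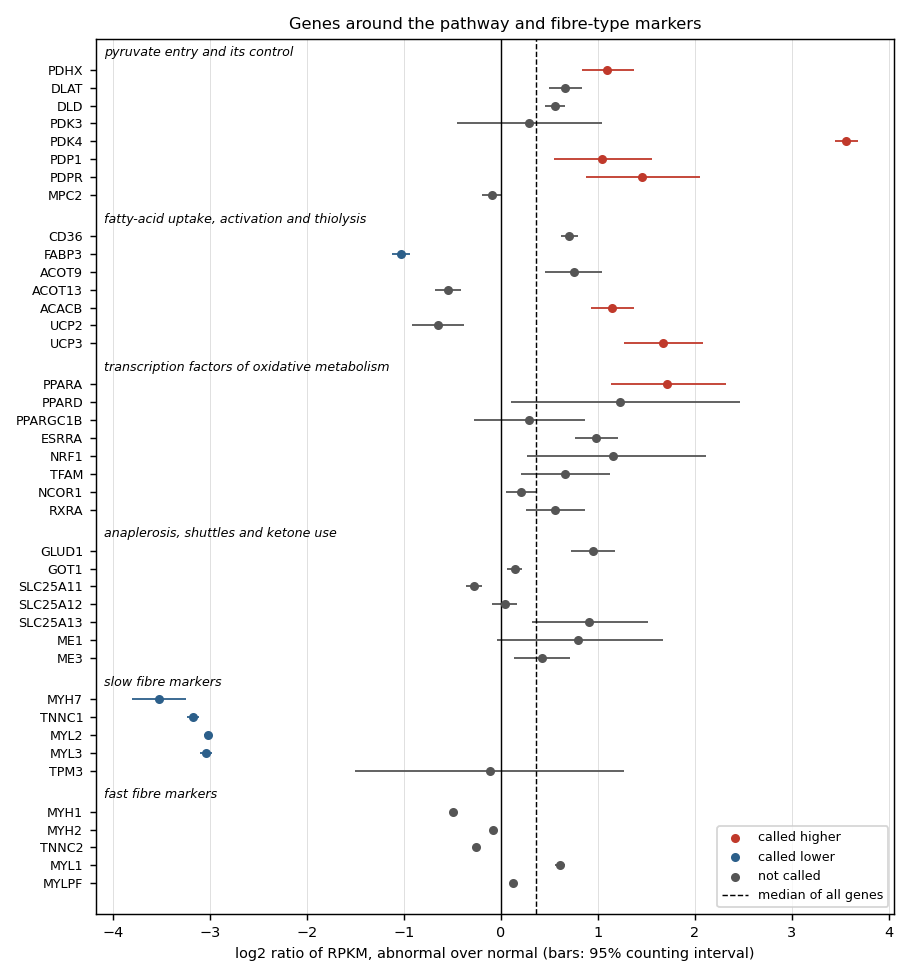
Log2 RPKM ratio (abnormal over normal) with 95% counting intervals for genes of 4 lists around the pathway and for slow and fast fibre markers, each read 10 or more times per library; the dashed line is the all-gene median of 0.36. PDK4 lies far to the right and 4 slow-fibre genes far to the left.

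The slow-fibre genes named above were lower in the same library as ACAA2, ACADL, ECHS1, HADH and ETFB. Other enzymes went the other way, among them OGDH (2.09), IDH3A (1.07) and ETFDH (0.52). Relative to the all-gene median these 3 stood at 1.73, 0.71 and 0.16. Of the 52 entries, 27 had a ratio above 0, and 39 lay below the all-gene median. The part of the slow-fibre genes in the enzyme ratios was not tested. The fifth matched slow marker, TPM3, had 11 and 10 reads on the matched entry, while an entry overlapping it at the same locus had 12077 reads (1128.1 RPKM) in the normal and 1933 reads (184.5 RPKM) in the abnormal library and was called lower at −2.61. Likewise the MYH7 entry overlaps that of MYH6. Other markers gave less. The 4 matched markers of blood and plasma summed to 749.9 RPKM in the normal and 519.7 RPKM in the abnormal library, with ALB called lower (271 and 12 reads). Connective tissue markers, 5 matched, summed to 1510 and 1358 RPKM, and immune cell markers, 4 matched, to 10.99 and 5.14 RPKM. The 4 matched fat cell markers summed to 2.20 and 2.09 RPKM, with LEP and PLIN1 at 0 reads in the normal library and at 1 and 2 in the abnormal library. The part of these cell types in the enzyme ratios was not tested.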

How the data were processed

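RNA-seq of poly(A) RNA from biceps femoris pools was analysed in 2 libraries, 1 per group. The authors sequenced fragments on an Illumina HiSeq 2000, mapped them with SOAPaligner (soap2), allowing 2 mismatches, to Sscrofa9 transcripts, and deposited the count of unique reads, the RPKM and the percent of each transcript covered. A gene left out of one table was taken as 0 reads. RPKM recomputed from the deposited counts matched the deposited values. The depth was 6.38 M and 6.52 M reads (abnormal and normal library), at which the members' intervals reached a median of 0.24 log2 units to either side of the ratio.

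1 matched entry is not reported here by name or value and enters only counts and sums over members. Both tables were joined by identifier and members found by description (47 Entrez and 17 Ensembl identifiers; symbols by the description or the RefSeq table, 7194 of 8429 Entrez identifiers matched there). With 1 library per group no model of replicate spread could be fitted. Each gene was tested with the two-sided Audic-Claverie test, Benjamini-Hochberg adjusted over 12535 genes, and called at FDR of at most 0.001 and an absolute log2 RPKM ratio of at least 1. Intervals are 95% Clopper-Pearson intervals of the share of reads, and no fold was given where one library was at 0 and the other at or under 3 reads. Reads are not independent molecules, so intervals and floors cover counting error only. Named were all called members, the 3 with the highest mean RPKM in each role group, and the main enzymes of each step; the remaining members are given for completeness, and of the lists the called genes, while the other list genes printed were chosen after their values were seen. The members and lists were chosen with earlier results of these data known. Alternatives were median-ratio and TMM scaling, totals without mitochondrial transcripts, an exact test by Fisher's method, the exact test of edgeR run at a coefficient of variation set to 0.2 or 0.4, a pseudocount of 1 RPKM, at least 10 reads in both libraries, the fold limit alone, core members alone, summed entries and, chosen after seeing the data, a correction for transcript length by a running median of 501 genes. The script was tested on simulated data. Python 3.11.15, numpy 2.4.6, pandas 2.3.3, scipy 1.17.1, R 4.3.3 and edgeR 4.0.16 were used. DNA methylation data of the study were not analysed here.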

Additional observations from a re-analysis of the deposited data

How the results depend on the processing

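With 1 library per group no replicate could be left out. No paired analysis was possible because each group is 1 library and the labels give no replicate numbers. The 5 members called higher became 3 with median-ratio scaling, TMM scaling or the length correction (OGDH, ACSL4 and ECHDC3 each time), 4 with totals without mitochondrial transcripts, 2 with edgeR at an assumed variation of 0.2 (OGDH and ACSL4) and 0 at 0.4. The 1 called lower became 2 with median-ratio scaling, 5 with TMM scaling (ACAA2, ACADL, ACSL3, ECHS1 and ETFB) and 5 with the length correction, and 0 with edgeR at either value. Shares of all genes called were taken only for the main test, median-ratio scaling and the length correction. The counts under the other settings cannot be set against all genes. The median log2 ratio of all members with a fold, 0.05, became −0.31 with median-ratio scaling, −0.35 with TMM, −0.20 without mitochondrial transcripts and −0.32 with the length correction. These scalings lower every ratio by 0.36, 0.39 and 0.25, and the length correction lowers it by an amount set by length. Under median-ratio scaling 39 of the 52 members with enough reads lay below 0. The named members that went from above to below 0 were CS (−0.19), IDH3B (−0.12), CPT2 (−0.31), ACADVL (−0.16), HADHB (−0.085) and HACD1 (−0.26). Some members outside the named ones changed sign as well, such as SUCLA2 (−0.20). Under TMM the same 6 stood at −0.22, −0.15, −0.35, −0.19, −0.12 and −0.30. Without mitochondrial transcripts the named members that changed sign in this way were CS (−0.077), IDH3B (−0.0067), CPT2 (−0.20), ACADVL (−0.048) and HACD1 (−0.15). With the length correction they were IDH3B (−0.077), CPT2 (−0.44), ACADVL (−0.11), HADHB (−0.036) and HACD1 (−0.038). Fisher's exact test, the read minimum, the fold limit alone, core members and summed entries left both counts within 1.5 times, as did the pseudocount, which lost OGDHL. The 12 members under 10 reads in either library were too thinly read to judge, and depth need not be the only limit. Among them, both fumarase entries and the second entries of IDH3A, IDH3B, SUCLG1, ACSL3, ACSL4, ECI2 and ACLY overlapped another entry. Reads shared by overlapping entries are dropped when only unique hits are counted.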
